A study of Mus musculus with 16 samples.

Results

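Stromal cells sorted from mouse bone marrow did not all yield libraries with the same amount of leukocyte RNA, and the 8 libraries are compared here along that axis. The libraries were selected on 1 measured value. A library was called leukocyte-rich where its deposited normalized value of Ptprc, the gene of the pan-leukocyte antigen CD45, was at least 10000, and leukocyte-poor otherwise. This put 3 of 8 libraries in the rich set (SA replicates 1 and 2 and SS replicate 1) and 5 of 8 in the poor set (SA replicates 3 and 4 and SS replicates 2, 3 and 4). The 3 rich libraries had Ptprc at 20884, 20635 and 13882 in that order. The poor ones had 5806 and 3416 in SA replicates 3 and 4, and 1476, 5728 and 1363 in SS replicates 2, 3 and 4. The values nearest to the threshold were thus 13882 inside it and 5806 outside it. The split was made from these libraries' own RNA, so the calls below say which genes follow it. They are not a test of an independent condition.

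All mice were Townes mice, in which human alpha-globin genes stand in for the mouse ones (hα/hα). SS mice were homozygous (βS/βS) for an allele with the human Aγ-globin and sickle beta-globin genes in place of the mouse major and minor beta-globin genes. SA mice carried 1 sickle and 1 normal human beta-globin (βA/βS), so both genotypes had a sickle allele. Digested marrow was sorted for live single cells of the phenotype CD45- Ter119- CD31- CD51+ CD140a+, and total RNA went into a low-input library kit. Titles number 4 SA and 4 SS libraries, each sequenced on 2 lanes and taken here as 1 per mouse, and the labels give no age or treatment. 1 lane of SS replicate 4 is titled SS and has SA in its source name and mouse group, and it was kept in SS with the other lane of that library.

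CD51+ CD140a+ marrow stroma holds the perivascular mesenchymal cells that make Cxcl12 and Kit ligand, the factors that keep blood stem cells in place and alive, and that give rise to bone, fat and cartilage cells. These cells lie in close contact with maturing neutrophils, macrophages, B cell progenitors, megakaryocytes and sinusoidal endothelium. CD45 is a membrane phosphatase of all nucleated blood cells, CD31 is an antigen of endothelium and platelets, and Ter119 marks red cells. RNA of all these cells was outside the gate by design.

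Total counts ran from 24797857 to 31117007 per library. They averaged 26139000 in rich and 30085000 in poor libraries, a difference that did not pass (two-sided exact permutation test over 56 arrangements, p = 0.0714, adjusted over 5 library measures 0.119). The share of counts in unnamed gene models was 2.69% ± 0.0600 (SD, n = 3) in rich and 2.25% ± 0.110 (SD, n = 5) in poor libraries without overlap (exact permutation p = 0.0357, the smallest that 3 against 5 can give, adjusted p = 0.119). Mitochondrially encoded genes took 18.5% and 21.4% of counts (exact permutation p = 0.107, adjusted 0.134). Both genotypes were in both sets, with 2 of 4 SA and 1 of 4 SS libraries rich. Titles carry date-like numbers, 10-19 for all SA libraries, 10-22 for SS replicates 1, 3 and 4 and 10-28 for SS replicate 2, whose meaning no label states. SS replicate 2 also stood apart by Xist, the transcript of the inactive X chromosome, with 57347 counts against at most 420 in any other library. It is in the poor set. Xist was looked at after its values were seen.

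Below, expression is given as CPM, counts scaled to a common total by TMM (trimmed mean of M-values) library factors. Values of the rich libraries are in the order SA replicate 1, SA replicate 2, SS replicate 1, and those of the poor libraries in the order SA replicates 3 and 4, SS replicates 2, 3 and 4. Differences are log2 of rich over poor from edgeR's quasi-likelihood fit with genotype as a term, with a standard error (SE) and a p adjusted over all 20560 genes tested. A gene is said to have risen or fallen, or to be called, where that adjusted p was under 0.05. Ptprc was left out of the test. In sorted bulk RNA, fewer cells of a type and less RNA per cell cannot be told apart.

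The given marker genes came first. Ptprc, on which the libraries were split, was at 742, 730 and 497 CPM in rich and 209, 125, 54.3, 206 and 49.9 CPM in poor libraries. Cd52, a small surface glycoprotein of lymphocytes and myeloid cells, was at 174, 228 and 106 CPM and at 88.1, 42.2, 26.8, 54.5 and 8.05 CPM. The rich libraries were the highest for both genes, and the gap between SS replicate 1 and SA replicate 3 was narrower for Cd52. Ngp, a granule protein of immature neutrophils, was at 4030, 4900 and 2000 CPM in rich and at 1440, 700, 470, 828 and 104 CPM in poor libraries. Pax5, the transcription factor that fixes B cell identity, was at 89.3, 73.9 and 8.46 CPM in rich and at 25.6, 7.84, 1.52, 4.13 and 0.873 CPM in poor libraries. Pax5 therefore overlapped between the sets, with SS replicate 1 below SA replicate 3. None of the 3 tested markers passed: the log2 differences were 1.72 for Cd52 (SE 0.47, adjusted p = 0.0959), 2.08 for Ngp (SE 0.49, adjusted p = 0.0576) and 2.15 for Pax5 (SE 0.53, adjusted p = 0.0667).

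The stromal markers lay the other way, with smaller differences. Cxcl12, the chemokine that retains blood stem cells, was at 14700, 10400 and 16100 CPM in rich and at 23400, 23100, 22200, 19900 and 14600 CPM in poor libraries. Lepr, the leptin receptor and a marker of perivascular stroma, was at 1660, 1090 and 1880 CPM in rich and at 2620, 2780, 2660, 2510 and 1600 CPM in poor libraries. In both genes SS replicate 4 fell among the rich libraries and the other 4 poor libraries lay above them. The log2 differences were -0.60 for Cxcl12 (SE 0.19, adjusted p = 0.149) and -0.66 for Lepr (SE 0.22, adjusted p = 0.169), neither called. Of the sorted antigens, Pdgfra (CD140a) had -0.83 (SE 0.20, adjusted p = 0.0590) and Itgav (CD51) -0.69 (SE 0.18, adjusted p = 0.0752). Pecam1, which encodes the gated-out CD31, was at 44.5, 23.6 and 31.3 CPM against 15.4, 4.23, 0.835, 4.77 and 1.36 CPM (log2 difference 2.71, SE 0.67, adjusted p = 0.0685). Cd52 and Ngp did not overlap between the sets, as held for 7.6% of all genes in that direction. Both are leukocyte transcripts of the same RNA as Ptprc, so this is descriptive. The B cell marker separated the sets only in part.

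**Figure D1:**
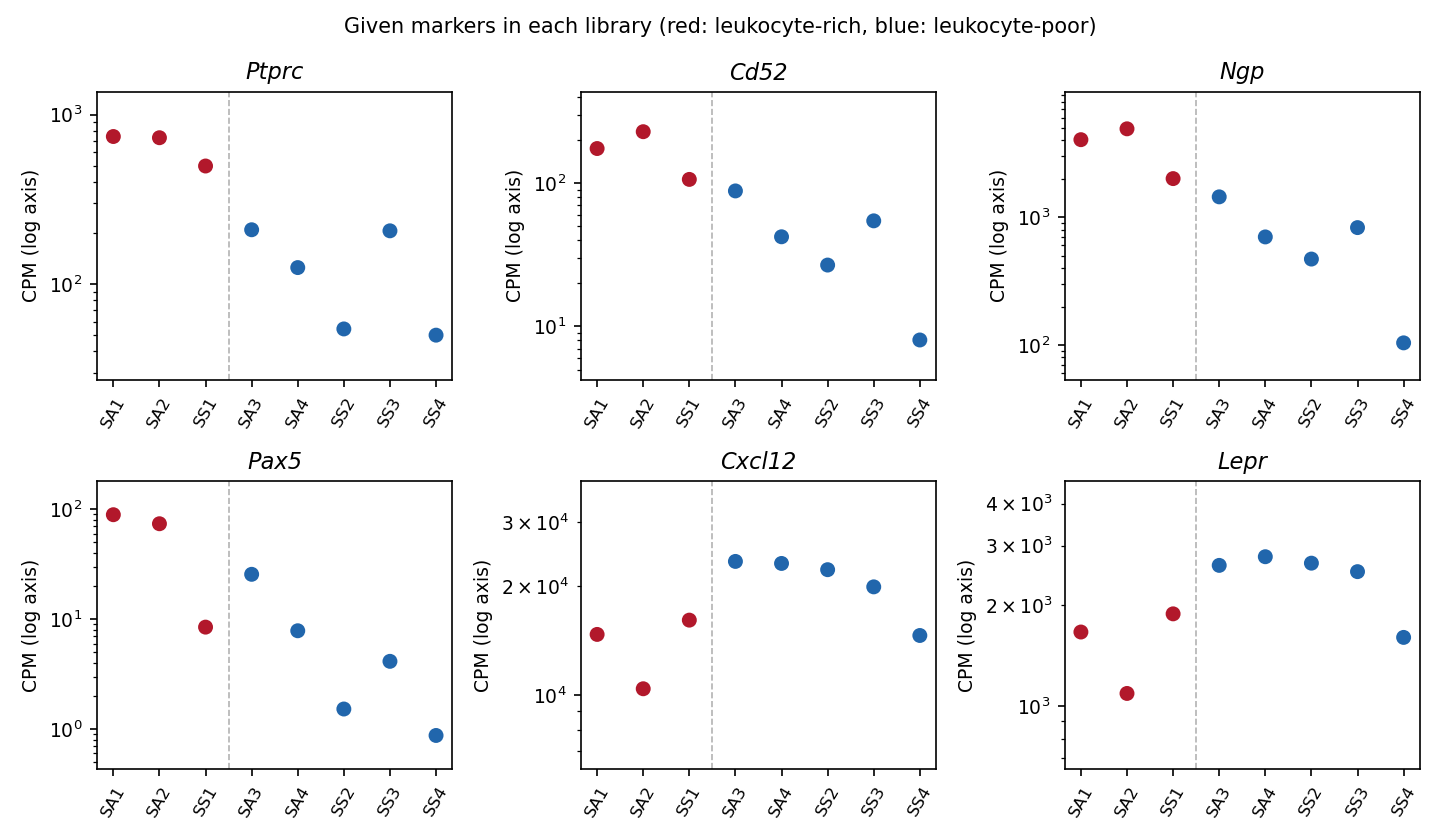
CPM (log axis) of Ptprc, Cd52, Ngp, Pax5, Cxcl12 and Lepr in each of the 8 libraries, 1 point per library, rich libraries in red left of the dashed line and poor ones in blue. Ptprc, Cd52 and Ngp do not overlap between the sets, Pax5 overlaps at SS replicate 1 (8.46 CPM), and SS replicate 4 lies among the rich libraries for Cxcl12 and Lepr.

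Across all genes, 257 rose in the rich libraries (1.25% of 20560 tested) and 139 fell (0.676%), so 64.9% of calls were higher in rich. An unadjusted p under 0.05 was reached by 3294 genes (16.0%). Rich and poor libraries did not overlap for 1562 genes that were higher (7.6%) and 1132 that were lower (5.51%) in rich, 13.1% together. The median difference over all genes was -0.02. Of the 257 genes that rose, 35 were on the blood cell lists used here and 2 on lists of stromal, matrix or bone genes. Of the 139 that fell, 0 were on blood cell lists and 23 on the stromal, matrix and bone lists.

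These counts rest on few libraries. Without SA replicate 1, 4 genes rose and 2 fell, without SA replicate 3 there were 68 and 12, without SA replicate 4 there were 9 and 3, and without SS replicate 2 there were 143 and 82. Without SS replicate 3 they were 428 and 170. Without SA replicate 2 or SS replicate 1 edgeR called 0 genes, while 2595 and 2733 had an unadjusted p under 0.05. DESeq2 called 1053 genes higher (5.8%) and 680 lower (3.74%), and limma-voom 602 (2.93%) and 208 (1.01%). Libraries were also scaled to their summed stromal transcripts (the stromal identity list with Cxcl12 and Lepr) instead of by TMM. The median of all genes then moved from -0.02 to 0.61. Calls became 931 higher (4.53%) and 6 lower (0.0292%), so that 99.4% of calls were higher. All 257 genes that rose passed under that scaling too, and of the 139 that fell all stayed below 0 and 6 passed. The scaling moved genes up in general, so these counts follow in part from it and are not an independent check. With log2 Ptprc itself in place of the split, 412 genes were called higher and 75 lower (84.6% higher).

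**Figure D2:**
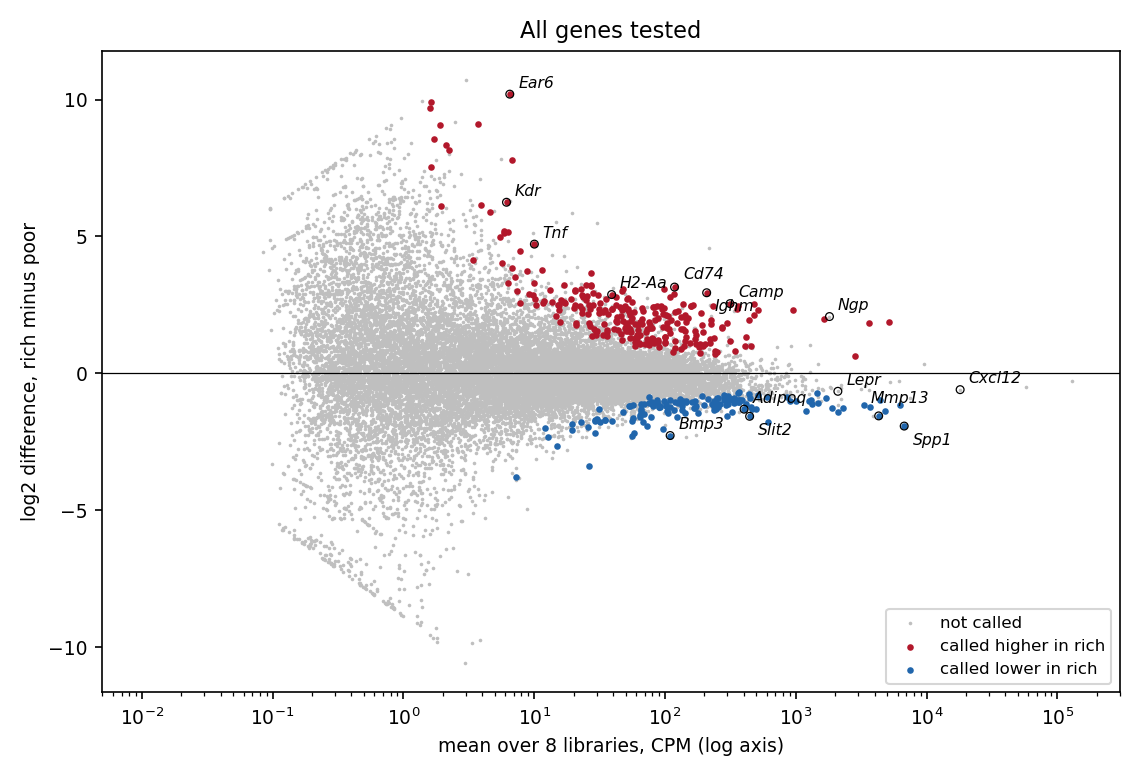
Log2 difference of rich over poor libraries against the mean CPM over 8 libraries (log axis), 1 point per gene tested, with called genes in red (257 higher) and blue (139 lower) and the named genes ringed. Calls that rose spread up to several log2 units among genes of low and middle abundance, while those that fell lie mostly within a few log2 units of 0 at middle to high abundance.

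Genes of all leukocytes, granulocytes and antigen presentation had the most calls among those that rose. Ptprc is itself a leukocyte transcript, so these lists are not independent of how the libraries were split, and their counts are descriptive. On the pan-leukocyte list 20 of 20 genes lay above 0, 10 rose and the median difference was 1.86, and 18 of 20 did not overlap between the sets. Ptpn6, the phosphatase SHP-1 that dampens immune receptor signalling, was at 77, 95.2 and 67.4 CPM in rich and at 34.5, 18.6, 5.84, 10.5 and 6.53 CPM in poor libraries (log2 difference 2.36, SE 0.37, adjusted p = 0.0193). Laptm5, a lysosomal membrane protein of blood cells, was at 137, 334 and 136 CPM and at 55.7, 38.9, 28.9, 54.8 and 24 CPM (2.15, SE 0.35, adjusted p = 0.0213). Neither gene overlapped between the sets, and SA replicate 3 was the highest poor library for each. Arhgdib, a GDP-dissociation inhibitor of small GTPases in blood cells, and Lsp1, an actin-binding protein of leukocytes, rose by 1.84 and 1.81.

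Among neutrophil genes 24 of 24 lay above 0 and 10 rose, with a median of 2.13, and 15 did not overlap. Camp, the antimicrobial peptide cathelicidin of secondary granules, was at 705, 893 and 417 CPM in rich and at 114, 120, 118, 122 and 26.5 CPM in poor libraries (log2 difference 2.55, SE 0.41, adjusted p = 0.0204). Chil3, a chitinase-like secreted protein of neutrophils and macrophages, was at 1050, 1230 and 774 CPM and at 334, 166, 130, 128 and 37.7 CPM (2.54, SE 0.37, adjusted p = 0.0193). Cxcr2, the chemokine receptor that draws mature neutrophils out of marrow, rose by 2.52, and Lcn2, an iron-sequestering granule protein, by 2.32. The summed level of the 24 neutrophil genes was 31464, 37058 and 18412 CPM in rich and 11904, 6390, 4217, 7975 and 1454 CPM in poor libraries. The order of the libraries by this sum was that by Ptprc, except that SA replicates 1 and 2 changed places.

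MHC class II genes, which present peptides to helper T cells, included H2-Aa, which shared the smallest adjusted p of all genes with Spp1. H2-Aa, the alpha chain of I-A, was at 109, 83.9 and 66.5 CPM in rich and at 10.9, 19, 8.86, 6.32 and 7.86 CPM in poor libraries (log2 difference 2.88, SE 0.29, adjusted p = 0.00767). Cd74, the invariant chain that chaperones class II molecules, was at 274, 316 and 218 CPM and at 28.3, 40.8, 16.6, 48.9 and 4.56 CPM (3.15, SE 0.54, adjusted p = 0.0237). For both genes even the lowest rich library, SS replicate 1, was far above the highest poor one. H2-Ab1, the beta chain of I-A, and H2-DMa, which helps load peptides, rose by 2.72 and 2.71. In all 4 of 10 class II genes rose, 0 fell and the median was 2.72. Their sum was 598, 604 and 482 CPM in rich and at most 103 CPM in poor libraries.

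B cell genes moved less evenly. The 21 B cell genes all lay above 0 with a median of 2.94, yet 3 rose and 7 did not overlap. Pou2af1, a coactivator of octamer factors in B cells, was at 81.3, 95.8 and 20 CPM in rich and at 13.7, 1.18, 1.56, 1.69 and 1.03 CPM in poor libraries (log2 difference 3.67, SE 0.60, adjusted p = 0.0213). Ighm, the constant region of IgM heavy chain, was at 930, 479 and 77.4 CPM and at 70.8, 40.2, 14.3, 45.7 and 8.99 CPM (2.94, SE 0.60, adjusted p = 0.0383). For both genes SS replicate 1 was just above SA replicate 3, and SA replicates 1 and 2 were far above all others. Blnk, the adaptor of the pre-B and B cell receptors, rose by 3.04. Igkc, the kappa light chain constant region, did not pass (2.91, SE 0.71, adjusted p = 0.0630), with 292 CPM in SA replicate 1 and 54.2 and 11.4 CPM in the other rich libraries. The B cell sum was 1818, 1119 and 201 CPM in rich and 281, 150, 38.8, 90.2 and 25.9 CPM in poor libraries, so that SS replicate 1 lay below SA replicate 3. Relative to the neutrophil sum it was 0.0578, 0.0302 and 0.0109 in the rich and 0.0236, 0.0234, 0.00919, 0.0113 and 0.0178 in the poor libraries. In this ratio each SA library was above each SS library, whether rich or poor. Plasma cell genes had a median of 1.86 with 0 of 10 called, and Tnfrsf17, the receptor BCMA, had 0 counts in all 8 libraries.

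Of 20 monocyte and macrophage genes 2 rose, with a median of 1.64. Lyz2, the myeloid lysozyme, was at 3380, 3630 and 2510 CPM in rich and at 1310, 619, 438, 990 and 222 CPM in poor libraries (log2 difference 2.0, SE 0.40, adjusted p = 0.0348). Ccr2, the receptor that brings inflammatory monocytes into tissue, was at 161, 184 and 153 CPM and at 57.1, 18.9, 62.3, 48.6 and 19 CPM (2.03, SE 0.41, adjusted p = 0.0373). Neither gene overlapped between the sets. Dendritic cell genes had a median of 2.25 with 0 of 12 called. Irf8, which directs monocyte and dendritic cell fate, was at 54.1, 74.2 and 32.5 CPM in rich and at most 30.9 CPM in poor libraries (1.44, SE 0.34, adjusted p = 0.0595). T and NK cell genes had the smallest median of the blood cell lists, 0.55 over 18 of 21 genes tested, with 0 called. Cd4, the helper T cell coreceptor, was at 14.4, 16.3 and 9.93 CPM in rich and at 3.46 to 8.37 CPM in poor libraries (1.42, SE 0.58, adjusted p = 0.246).

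Several genes of mast cells, basophils and eosinophils had almost no counts in the poor libraries. These passed the filter on low counts only through the rich libraries, so the count and the fitted median of the list describe it and support nothing. Other lists also hold members with few counts in the poor libraries, and their counts and medians are likewise descriptive. Of 16 genes 4 rose, and the median was 5.78, or 5.62 with the 2 genes that had 0 counts in every poor library, Prg3 and Epx, set to their bound of 3 counts per library. Ear6, an eosinophil-associated ribonuclease, had 36, 1263 and 202 counts in the rich libraries and 0, 1, 0, 0 and 0 in the poor ones (adjusted p = 0.0142). Prg2, the eosinophil major basic protein, had 52, 648 and 824 counts against 0, 12, 0, 1 and 0 (adjusted p = 0.0297), and Ms4a2, the beta chain of the IgE receptor, had 47, 286 and 146 against 0, 0, 0, 3 and 0 (adjusted p = 0.0366). Ear1, a related ribonuclease, had 160, 527 and 158 counts against 2 in SS replicate 3 and 0 in the other poor libraries. In each of these genes SA replicate 1 was well below SA replicate 2. Gata2, a factor of mast cells and of stem and progenitor cells, was at 12.4, 16.6 and 9.54 CPM in rich and at 0.736, 0.626, 1.23, 6.67 and 1.42 CPM in poor libraries and did not pass (3.40, SE 0.98, adjusted p = 0.110). The sum of the list was 503, 666 and 344 CPM in rich and 17.6 to 178 CPM in poor libraries, a mean 6.13-fold higher in rich, against 8.94-fold for the B cell and 7.6-fold for the MHC class II sum.

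**Figure D3:**
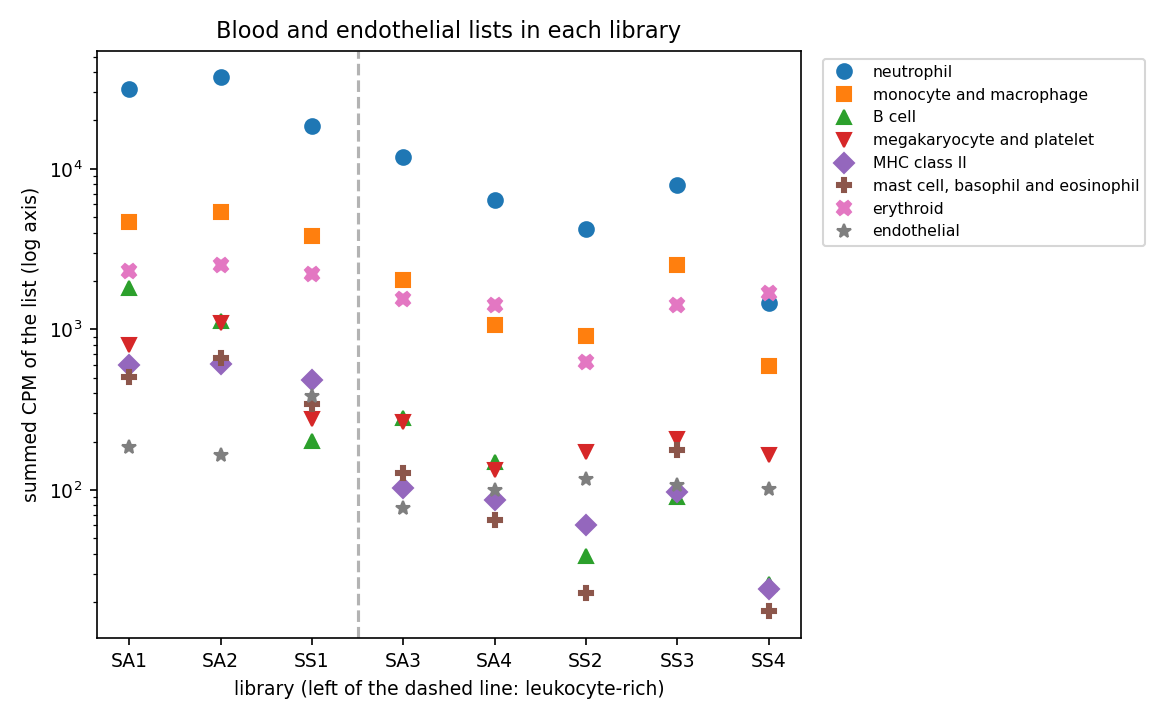
Summed CPM (log axis) of the genes of 8 blood cell and endothelial lists in each library, with the rich libraries left of the dashed line. Neutrophil, MHC class II and mast cell, basophil and eosinophil sums are higher in each rich library than in each poor one, while the B cell sum of SS replicate 1 (201 CPM) is below that of SA replicate 3 (281 CPM), and the endothelial sum is highest in SS replicate 1 (384 CPM).

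Genes of red cells, platelets and vessels, cells that the Ter119 and CD31 gates exclude, also followed the split in part. Among 21 erythroid genes 2 rose, 18 lay above 0 and the median was 0.59. Alas2, which starts heme synthesis in red cell precursors, was at 83.9, 98.1 and 118 CPM in rich and at 29.8, 7.25, 19, 20.6 and 17.3 CPM in poor libraries (log2 difference 2.45, SE 0.38, adjusted p = 0.0193). Slc4a1, the band 3 anion exchanger of the red cell membrane, was at 436, 443 and 511 CPM and at 149, 112, 96.6, 299 and 122 CPM (1.67, SE 0.32, adjusted p = 0.0310). SS replicate 1 was the highest of all libraries for both, although it was the lowest rich library for neutrophil and B cell genes. Megakaryocyte and platelet genes had a median of 2.94 with 0 of 18 called. Some members had few counts in the poor libraries, so this median is descriptive. Gp1ba, a subunit of the von Willebrand factor receptor, was at 28.3, 29.6 and 1.19 CPM in rich and at 0.177 to 1.03 CPM in poor libraries (3.73, SE 1.13, adjusted p = 0.125). Itga2b, the platelet integrin alpha IIb, was at 15.8, 36.8 and 3.86 CPM and at 0.0368 to 3.18 CPM (3.62, SE 1.12, adjusted p = 0.133). These 2 genes were high in SA replicates 1 and 2 and low in SS replicate 1. Selp, P-selectin of platelets and endothelium, was at 8.28, 17.5 and 10.7 CPM in rich and at 0.147 to 2.62 CPM in poor libraries (4.33, SE 1.0, adjusted p = 0.0547).

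Of 19 endothelial genes tested 2 rose, 17 lay above 0 and 10 did not overlap, with a median of 3.02. Kdr, the VEGF receptor 2, had 482, 260 and 602 counts in the rich libraries and 1, 19, 4, 1 and 5 in the poor ones (log2 difference 6.25, SE 0.99, adjusted p = 0.0201). With so few counts in the poor libraries, Kdr passed the filter on low counts through the rich ones. Its call is therefore descriptive and supports nothing, and the same holds for the counts and median of this list. Flt1, the VEGF receptor 1, had 93, 178 and 427 counts against 6, 11, 38, 17 and 5 (4.16, SE 0.91, adjusted p = 0.0459). SS replicate 1 was the highest library for both, and its endothelial sum of 384 CPM compared with 184 and 164 CPM in SA replicates 1 and 2 and 76.9 to 116 CPM in the poor libraries. Stem and progenitor cell genes had a median of 0.84 with 0 of 19 called, and their sums overlapped (941 to 1048 CPM in rich, 777 to 1106 CPM in poor libraries). Pericyte and smooth muscle genes all lay below 0 with a median of -1.05, and 0 of 15 were called. Myh11, smooth muscle myosin, was at 30.7, 41.4 and 48 CPM in rich and at 58.8, 108, 112, 81.3 and 299 CPM in poor libraries (-1.44, SE 0.44, adjusted p = 0.124). Acta2, smooth muscle actin, lay at 26.8 to 42.4 CPM in rich and 44.8 to 223 CPM in poor libraries (-1.36, SE 0.54, adjusted p = 0.231). SS replicate 4 was the highest for both and had a pericyte sum of 7602 CPM, against at most 2648 CPM in any other library.

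Several of the strongest calls were on none of the blood cell lists. Tnf, the inflammatory cytokine tumor necrosis factor, lies on chromosome 17 of GRCm38 (35199381 to 35202007) and had 1016, 668 and 434 counts in rich and 31, 25, 22, 23 and 17 in poor libraries. It rose by 4.72 (SE 0.49, adjusted p = 0.00853) on the log2 scale, and the poor libraries lay within a narrow range. Il1r2, the decoy receptor for interleukin 1, was at 225, 171 and 112 CPM in rich and at 54.9, 29.3, 13.6, 25.6 and 12.8 CPM in poor libraries (2.43, SE 0.30, adjusted p = 0.0142). The sets were far apart for both genes. Pygl, a glycogen phosphorylase, rose by 1.84 and Lyst, which controls the size of lysosome-related granules, by 1.71. Cd44, the hyaluronan receptor, which is on the stromal identity list and is also abundant on leukocytes, rose by 1.80, with 425, 522 and 313 CPM in rich and 184, 87.4, 80.1, 99 and 92.1 CPM in poor libraries. It was the only member of the stromal identity list to rise.

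Of the lists, those of matrix and bone had the most calls among genes that fell. The stromal, matrix and bone lists together held 23 of the 139 genes that fell (16.5%). Spp1, osteopontin, a matrix phosphoprotein of bone that also acts on blood stem cells, was at 3050, 2590 and 2200 CPM in rich and at 8230, 13900, 8750, 7310 and 7940 CPM in poor libraries (log2 difference -1.93, SE 0.19, adjusted p = 0.00767). Bmp3, a bone morphogenetic protein that limits bone formation, was at 32.4, 31.7 and 35.7 CPM and at 235, 172, 157, 105 and 108 CPM (-2.27, SE 0.26, adjusted p = 0.0137). Every rich library was far below every poor one for both genes, and the rich libraries were closest together for Bmp3. Mmp13, the collagenase of osteoblasts and hypertrophic cartilage, was at 1810, 1960 and 2090 CPM in rich and at 5280, 6750, 8140, 4470 and 3930 CPM in poor libraries (-1.56, SE 0.24, adjusted p = 0.0193). Dmp1, a mineralization protein of osteocytes, was at 30.3, 26.3 and 7.54 CPM and at 135, 123, 49.7, 15 and 61 CPM (-2.31, SE 0.43, adjusted p = 0.0279). Dmp1 overlapped between the sets, since SS replicate 3 lay below SA replicates 1 and 2. Of 24 osteogenic genes tested 7 fell, 23 lay below 0 and the median was -1.40. The list's sum was 8800, 10596 and 7427 CPM in rich and 17218 to 32823 CPM in poor libraries.

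Extracellular matrix genes gave the most calls of any list, with 14 of 35 falling, 33 below 0 and a median of -0.89. Sparc, the collagen-binding protein osteonectin, was at 1520, 2330 and 2160 CPM in rich and at 5500, 4020, 5020, 3890 and 5010 CPM in poor libraries (log2 difference -1.22, SE 0.19, adjusted p = 0.0193). Tnc, the matrix glycoprotein tenascin C, was at 3580, 3120 and 3770 CPM and at 7860, 8300, 10200, 7590 and 5500 CPM (-1.17, SE 0.19, adjusted p = 0.0213). Col5a2, a chain of the fibril-starting collagen V, was at 96.1, 159 and 205 CPM and at 453, 329, 478, 360 and 505 CPM (-1.40, SE 0.23, adjusted p = 0.0213). None of these genes overlapped between the sets. Lum, a keratan sulfate proteoglycan that spaces collagen fibrils, fell by 1.05 and Col12a1, a fibril-associated collagen, by 1.10. Off the list, Mmp14, a membrane-bound collagenase, fell by 1.12, Efemp2, a fibulin needed for elastic fibres, by 1.44, and Aebp1, a collagen-binding protein, by 1.79. The matrix sum was 19735, 23107 and 25279 CPM in rich and 42814 to 55412 CPM in poor libraries.

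Outside the matrix and bone lists, Slit2, a secreted guidance ligand of Robo receptors, lies on chromosome 5 (47983138 to 48307733) and was at 174, 182 and 212 CPM in rich and at 491, 540, 802, 594 and 556 CPM in poor libraries (log2 difference -1.57, SE 0.17, adjusted p = 0.00919). Adipoq, the adipokine adiponectin, which marrow stroma with adipocyte leanings expresses, was at 281, 169 and 183 CPM and at 523, 469, 579, 473 and 544 CPM (-1.31, SE 0.20, adjusted p = 0.0195). The poor libraries were tightly grouped for Adipoq, and neither gene overlapped between the sets. Sh3pxd2b, an adaptor of podosomes, fell by 1.34 and Igsf10, an immunoglobulin superfamily protein, by 1.13. Of 20 adipogenic genes tested 2 fell, Adipoq and Agt, the angiotensin precursor (-0.79, SE 0.17, adjusted p = 0.0471). 1 rose, Plin2, a lipid droplet coat protein found in many cell types (1.51, SE 0.34, adjusted p = 0.0490). The median was -0.42. Zfp423, a regulator of preadipocyte fate, had -1.65 and did not pass (SE 0.39, adjusted p = 0.0595).

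Genes of stromal identity and of the niche had smaller median differences and fewer calls than the matrix and osteogenic lists. On the stromal identity list 1 of 22 genes fell (Adipoq), 1 rose (Cd44) and the median was -0.63. Without overlap, 9 of the 22 were lower and 1 was higher in rich libraries, beside 13 lower and 1 higher of 35 matrix genes. The stromal identity sum was 6003 to 9583 CPM in rich and 11573 to 13488 CPM in poor libraries. Foxc1, a transcription factor of the perivascular stroma, was at 315, 238 and 263 CPM in rich and at 556, 482, 347, 500 and 386 CPM in poor libraries (-0.80, SE 0.18, adjusted p = 0.0525), without overlap. On the list of blood stem cell niche factors 1 of 20 fell (Spp1), 16 lay below 0 and 4 above 0, and the median was -0.55. Without overlap, 4 were lower and 2 higher in rich libraries, beside 5.51% and 7.6% of all genes. Dpp4, 1 of those 2, was at 21.3, 19.3 and 11.5 CPM in rich and at 8.7, 1.73, 3.23, 2.47 and 1.46 CPM in poor libraries (2.09, SE 0.60, adjusted p = 0.106). The niche sum, which includes Spp1, was 5169 to 6172 CPM in rich and 12224 to 18430 CPM in poor libraries. Kitl, the Kit ligand, was at 728, 536 and 932 CPM in rich and at 1020, 1170, 1390, 1320 and 1080 CPM in poor libraries (-0.64, SE 0.17, adjusted p = 0.0763). Csf1, the macrophage growth factor, was at 340, 274 and 546 CPM and at 709, 770, 946, 672 and 543 CPM (-0.88, SE 0.23, adjusted p = 0.0821). SS replicate 1 was the closest rich library to the poor ones for Kitl and Csf1. Chondrogenic genes had a median of -1.45 with 0 of 12 called, 10 below 0 and 2 above 0. Sox6 was higher in rich libraries without overlap (0.71, SE 0.23, adjusted p = 0.152). Comp, a cartilage matrix protein, was at 23.3, 27.7 and 25.4 CPM in rich and 54.8 to 156 CPM in poor libraries (-1.51, SE 0.39, adjusted p = 0.0796). Col2a1, the cartilage collagen, was at 24.4 to 124 CPM and 64.5 to 413 CPM, with overlap (-2.27, SE 0.67, adjusted p = 0.119).

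**Figure D4:**
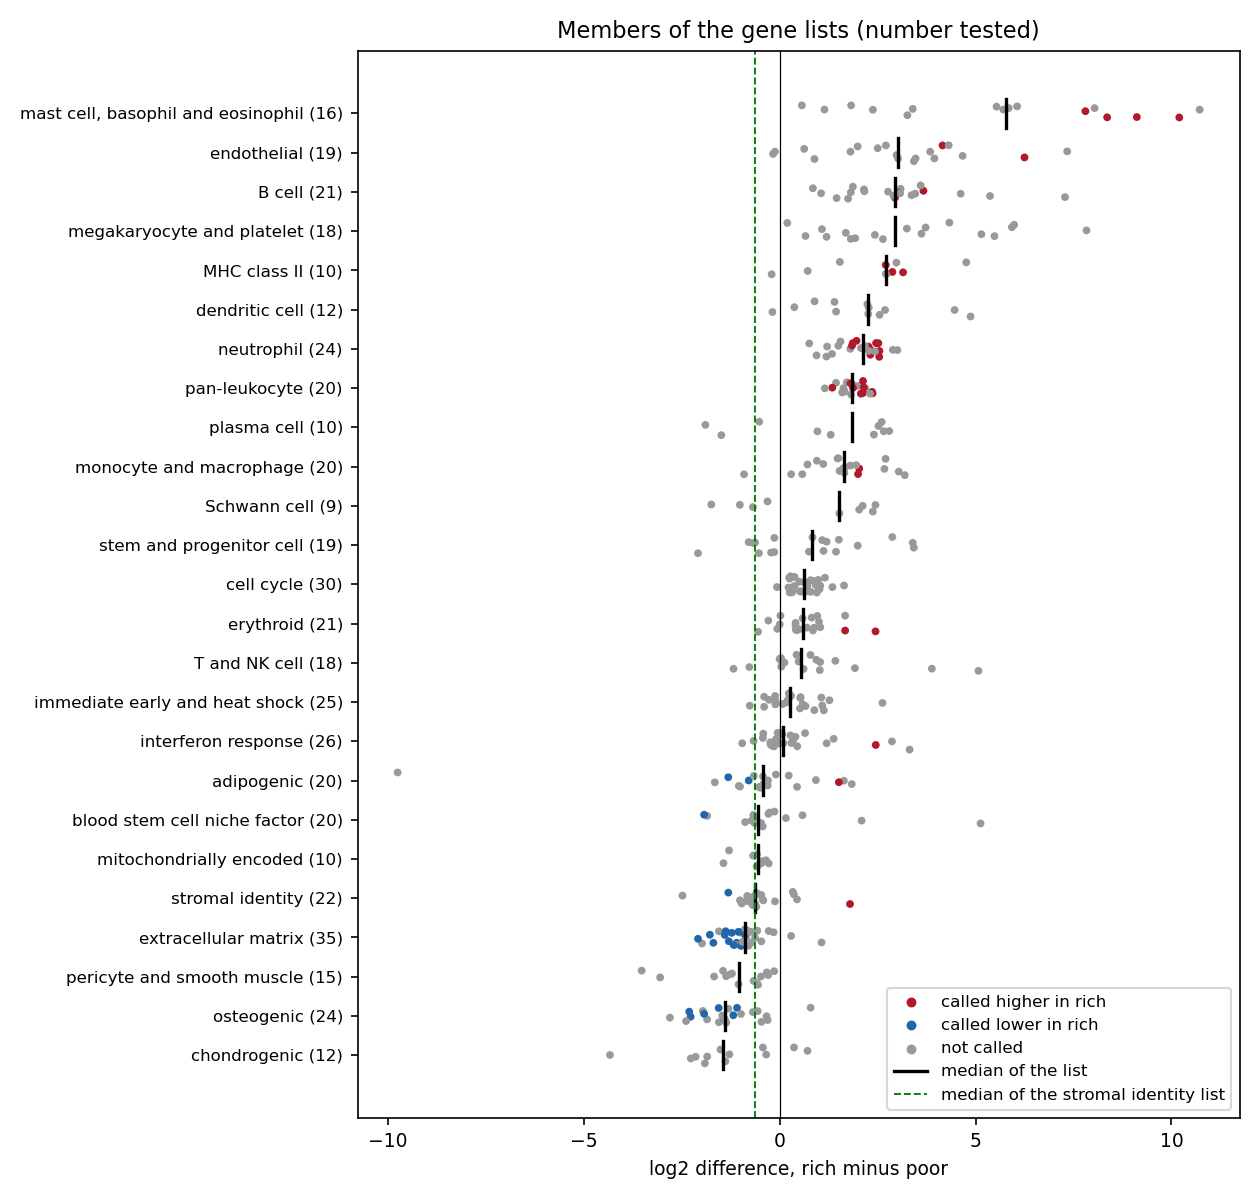
Log2 difference of rich over poor libraries for each tested member of 25 gene lists, 1 point per gene, with genes that rose in red, those that fell in blue and the rest in grey. Black bars are list medians and the green dashed line is the median of the stromal identity list (-0.63). The pan-leukocyte and neutrophil points all lie right of 0, while most extracellular matrix and osteogenic points lie left of the dashed line.

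TMM values are shares of each library's whole RNA, so the lists were also read on the stromal scale, where by construction the stromal identity list is near 0 (median -0.02). On that scale the median of all genes was 0.61. Cxcl12 (0.01), Lepr (-0.05) and Pdgfra (-0.24) are part of the scaling sum, so their values follow in part from it. This holds most for Cxcl12, which alone exceeded the stromal identity sum in each library. Itgav had -0.03 and Kitl -0.03. The extracellular matrix median was -0.27 with 0 genes called lower and the osteogenic median -0.73 with 2 called lower. Those 2 were Spp1 (-1.30, SE 0.23, adjusted p = 0.00847) and Bmp3 (-1.65, SE 0.28, adjusted p = 0.00825). Mmp13 had -0.90 (adjusted p = 0.0541), Slit2 -0.91 (adjusted p = 0.0581), Adipoq -0.70 (adjusted p = 0.162) and Sparc -0.56 (adjusted p = 0.285). Per unit of stromal identity sum, the osteogenic sum was 1.06, 1.77 and 0.775 in rich and 2.64, 2.68, 2.06, 1.34 and 1.37 in poor libraries, so the sets overlapped at SA replicate 2. The matrix sum per stromal sum was 2.38, 3.85 and 2.64 against 3.45 to 4.39. Whether the lower matrix and bone values go with the higher blood cell RNA in the same libraries was not tested apart from this change of scale.

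Promoters of genes at both ends of the comparison are shown to give the sequence context of genes that moved together. The bases are the 200 before the annotated start, 5′ to 3′ on the gene's strand, from RefSeq on GRCm38.p6. Capitals mark GAGGAAG, the core bound by ETS factors such as PU.1 of blood cells, or TGTGGT, the core bound by RUNX factors such as Runx2 of bone, each on either strand. The 4 genes were chosen after their values and matches were seen. Tnf (chr17:35202008-35202207, minus strand) and Lyst (chr13:13590209-13590408, plus strand) rose and hold the ETS core. Mmp13 (chr9:7272314-7272513, plus strand) and Slit2 (chr5:47982955-47983154, plus strand) fell, and the first holds the RUNX core and the second neither.
Tnf: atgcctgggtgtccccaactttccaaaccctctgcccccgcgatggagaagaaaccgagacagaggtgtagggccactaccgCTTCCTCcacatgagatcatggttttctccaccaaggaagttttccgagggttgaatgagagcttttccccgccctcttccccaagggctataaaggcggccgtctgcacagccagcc
Lyst: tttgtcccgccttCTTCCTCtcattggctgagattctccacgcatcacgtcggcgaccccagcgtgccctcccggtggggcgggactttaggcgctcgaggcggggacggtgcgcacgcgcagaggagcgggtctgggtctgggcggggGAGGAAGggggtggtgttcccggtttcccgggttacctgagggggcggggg
Mmp13: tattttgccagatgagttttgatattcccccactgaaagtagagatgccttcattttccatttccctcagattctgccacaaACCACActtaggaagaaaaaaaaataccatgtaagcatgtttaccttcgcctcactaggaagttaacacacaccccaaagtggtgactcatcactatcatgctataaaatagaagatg
Slit2: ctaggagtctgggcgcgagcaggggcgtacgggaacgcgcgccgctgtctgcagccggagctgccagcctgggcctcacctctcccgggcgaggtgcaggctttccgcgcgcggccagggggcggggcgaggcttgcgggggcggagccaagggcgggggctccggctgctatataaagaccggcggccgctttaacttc
Over the 250 bases before each start, GAGGAAG was in 16.4% of 250 promoters of the genes that rose (186 of 257 genes matched by symbol), in 13.2% of 136 promoters of those that fell (103 of 139 matched) and in 10.6% of all 32851 promoters. TGTGGT was in 15.2%, 9.56% and 14%. The 2 motifs do not overlap in their letters, and a match describes the sequence only.

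The differences were then read within each genotype, which share no library. Across 11571 genes averaging 5 CPM or more, the rich over poor difference in SA (replicates 1 and 2 over 3 and 4) and in SS (replicate 1 over 2, 3 and 4), on the log2(CPM + 1) scale, had Pearson's r of 0.532 and a Spearman coefficient of 0.453 across genes, which are not independent replicates. The sign was the same for 7690 genes (66.5%). All 257 genes that rose were above 0 in both genotypes and all 139 that fell were below 0 in both, though they were called on both together. Tnf had 3.95 in SA and 3.24 in SS, H2-Aa 2.65 and 2.97, Spp1 -1.93 and -1.86 and Slit2 -1.53 and -1.59. The neutrophil list had medians of 2.13 and 2.37, the osteogenic list -1.48 and -0.98 and the B cell list 2.45 and 1.34. Megakaryocyte and platelet genes had a median of 2.82 in SA and -0.13 in SS. Ppbp, a platelet chemokine precursor, was at 56.1, 170 and 0.351 CPM in rich and at 0.803, 0.663, 1.52, 2.12 and 9.31 CPM in poor libraries. Within 1 genotype edgeR called 0 genes: 2838 had an unadjusted p under 0.05 in the 4 SA libraries alone and 1230 in the 4 SS libraries alone.

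**Figure D5:**
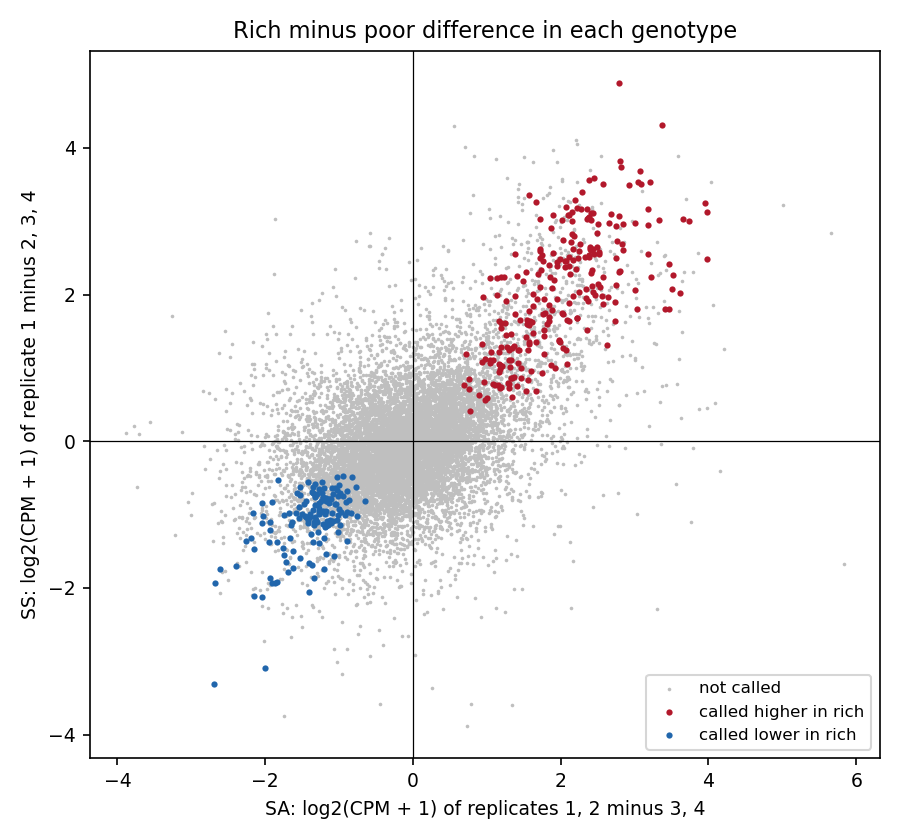
Rich minus poor difference in SA libraries (x axis) against that in SS libraries (y axis), both as differences of mean log2(CPM + 1), for 11571 genes averaging 5 CPM or more. The called genes (red higher, blue lower) all lie in the quadrants where both genotypes have the same sign, and over all the genes 66.5% share the sign.

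A test of whether the rich over poor difference itself differed between genotypes called 0 of 23619 genes in edgeR (0.0%), with 857 (3.63%) at an unadjusted p under 0.05. limma-voom called 0 and DESeq2 89. That test has SS replicate 1 as its only rich SS library, and a miss does not show that the genotypes are alike. For Ppbp the interaction was -10.86 on the log2 scale and did not pass.

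With the split in the model, genotype itself gave 0 calls of 20560 in edgeR (0.0%), with 1668 (8.11%) at an unadjusted p under 0.05. No title number is shared by SA and SS libraries, so genotype cannot be told apart from what those numbers stand for. limma-voom called 3 genes and DESeq2 271. Without the split in the model edgeR also called 0, with 1209 at an unadjusted p under 0.05. Dclk1, a microtubule-associated kinase, had the smallest p, at 24.2, 11.2, 21.5 and 29.5 CPM in SA replicates 1 to 4 and 85.6, 138, 123 and 127 CPM in SS replicates 1 to 4 (log2 of SS over SA 2.32, SE 0.27, adjusted p = 0.0774). Its rich over poor difference was -0.56 (adjusted p = 0.357). Fndc1, a fibronectin-domain protein, had 2.19 between genotypes (SE 0.31, adjusted p = 0.0944) and -0.52 between rich and poor. Nid2, the basement membrane protein nidogen 2, had 1.42 (SE 0.19) and Lrp1, a large endocytic receptor, 1.01 (SE 0.14), both with an adjusted p of 0.0944. Dkk3, a secreted protein of the Dickkopf family, had 1.83 (SE 0.28, adjusted p = 0.118). Col12a1 differed along both axes, with 1.26 between genotypes (SE 0.18, adjusted p = 0.0944) beside its fall in rich libraries. Ikzf3, a lymphocyte transcription factor that led the genotype contrast in an earlier analysis of these data, had -2.56 between genotypes (SE 0.54, adjusted p = 0.257) and 1.93 between rich and poor (adjusted p = 0.103), with 46.7, 75.3 and 4.60 CPM in the rich libraries.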

How the data were processed

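RNA was measured in 8 libraries of sorted mouse marrow stroma, each sequenced on 2 lanes (16 samples), and the replicate was the library that a title numbers, taken as 1 mouse. The library name in the title of SS replicate 2 carries the number 1. No label says that the libraries are from separate animals, so p-values may measure only the spread between libraries. Per gene symbol, the authors deposited a table of raw counts. They also deposited a normalized signal table, in which each count was divided by 1 factor per library. The normalized signal was used for the split at 10000 in Ptprc and for the continuous log2 Ptprc term, and for no other test. Tools in the submitters' processing notes are bcl2fastq, STAR, featureCounts and DESeq2, and builds are mm10 and GRCm38, with neither version nor role. The annotation and strand setting behind the counts were not given in the sources used here. Reads of overlapping and antisense genes therefore cannot be told apart, and immunoglobulin, class II and Ear genes may share reads with close copies.

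The test on the deposited counts (52459 symbols, 21138 without a count) was that of edgeR 4.0.16 under R 4.3.3, with genes kept by filterByExpr, TMM factors, a robust quasi-likelihood fit with split and genotype as terms, and Benjamini-Hochberg adjustment over 20560 genes without Ptprc. The standard error is the log2 difference divided by the root of F. Mapping to GENCODE M21 gave coordinates on GRCm38. DESeq2 1.42.0 and limma 3.58.1 (voom) were alternatives, beside other scalings, filters, covariates and sets of libraries. The script was tested on simulated data. Fisher's exact test of genotype against the split cannot reach 0.05 with 3 and 5 libraries and is not given.

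Gene lists (25, with 480 genes) and members were chosen with earlier results of these data known, and lists were described by counts and medians, without a test of the list. Genes are named as the given markers and sort antigens, as the 4 of smallest p in each list, as the 15 of smallest p in each direction among genes that averaged 5 CPM or more and did not overlap (without unnamed models), as those that led an earlier genotype contrast, or as the smallest p for genotype and interaction. Some genes that these rules select were left out and are not reported here.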

Additional observations from a re-analysis of the deposited data

Results flagged for a closer look

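Of 124 checks of a library against the others of its set, 24 found the highest or lowest library far from the rest. Chance would flag about 1 in 20 of independent checks. Many of these genes and lists go together or were named for a small p along the same split, so no excess is read from the 24. For Ear6, Ear1 and Ms4a2 the values rest on 1, 2 and 3 counts in 1 poor library and 0 in the others. Prg2 and Kdr also had few counts in the poor libraries. SS replicate 4 was the library in 6 of the 24. It was lowest of the poor libraries for Lepr (1600 CPM) and Camp (26.5 CPM), and highest for Myh11 (299 CPM), Ppbp (9.31 CPM), the pericyte and smooth muscle sum (7600 CPM) and the adipogenic sum (7440 CPM).

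SA replicate 3, the poor library with the most Ptprc, was the highest poor library for Pax5 (25.6 CPM), Pou2af1 (13.7 CPM), Pecam1 (15.4 CPM) and Cd44 (184 CPM). SA replicate 4 was highest for Spp1 (13900 CPM) and Kdr (0.699 CPM), and for Prg2 (0.442 CPM) and Ear6 (0.0368 CPM), where the other poor libraries were at or near 0. It had the fewest counts of the poor set (27780444).

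SS replicate 3 was the highest poor library for Slc4a1 (299 CPM), Rsad2, an antiviral enzyme of the interferon response (187 CPM), and Gata2 (6.67 CPM), and for Ms4a2 (0.106 CPM) and Ear1 (0.0706 CPM), which were at 0 in the other poor libraries. SS replicate 2 was lowest for the erythroid sum (622 CPM) and highest for Comp (156 CPM). SS replicate 1, the rich SS library, had the fewest counts of the SS libraries (25790675) and their highest share in unnamed gene models (2.65%).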

How the results depend on the processing

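The counts of called genes depended on the settings more than their direction did. The cause of the changes below was not tested, except that fits on fewer libraries have fewer residual degrees of freedom. Higher and lower calls in rich libraries (257 and 139) became 1053 and 680 with DESeq2, 602 higher with limma-voom, 931 and 6 with stromal scaling, 478 and 359 without a filter on low counts, 220 lower with a minimum of 1 CPM in 5 libraries, 412 and 75 with log2 Ptprc as a continuous term, and 68 and 12 without SA replicate 3, the poor library with the most Ptprc. They were 0 and 0 in the SA libraries alone, in the 4 SS libraries alone (an alternative chosen after seeing the data) and in the SS libraries titled 10-22 alone, where 1033 genes had an unadjusted p under 0.05. With each library left out in turn, higher calls ran from 0 to 428 and lower calls from 0 to 174. Of the 396 calls, 393 were also made by DESeq2 and 384 by limma-voom. With the title number set in place of genotype 273 were made, with log2 Ptprc 210 and without SA replicate 3 71. Genotype calls with the split in the model went from 0 to 271 with DESeq2, 3 with limma-voom and 2 with the replicate block, and ran from 0 to 1 with a library left out. Interaction calls went from 0 to 89 with DESeq2.

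Replicate numbers did not pair the libraries: deviations from the group means correlated at 0.183, -0.123, -0.00948 and 0.104 for numbers 1 to 4. With the replicate number as a block, 66 genes were called higher and 40 lower, of which 38 were among the calls without it.

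Some list medians changed sign. Under stromal scaling those of the niche factor, adipogenic and mitochondrially encoded lists were 0.112, 0.146 and 0.0887. With the replicate block the plasma cell, adipogenic and interferon response medians were -0.663, 0.699 and -0.0262. The megakaryocyte and platelet median was -0.574 in the SS libraries alone and -0.828 in those titled 10-22, where Ppbp was -3.58 and -3.99. The Schwann cell median was -0.178 with limma-voom, -0.466 at 1 CPM in 5 libraries, -0.398 with log2 Ptprc, -0.342 in SA alone, -0.388 in SS alone and -0.0792 in those titled 10-22. With 1 library left out it ran from -0.421 (without SA replicate 4) to 2.05 (without SA replicate 2), with -0.300 without SA replicate 3. The interferon response median was -0.145 in the SS libraries titled 10-22, -0.122 in all SS libraries, -0.0222 without SA replicate 3, and from -0.0745 (without SA replicate 1) to 0.471 (without SS replicate 1) with 1 library left out. Under stromal scaling the log2 differences of Cxcl12 (0.0133), Dclk1 (0.0315), Dkk3 (0.397), Fndc1 (0.160), Lrp1 (0.00303), Nid2 (3.53e-05) and mt-Cytb (0.0688) were above 0. Over the other pairs of a named gene and an alternative, 1290 kept their sign and side of the threshold, 501 lost the call and 123 gained it.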

Other observations

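Several gene groups outside the blood and stromal lists were measured along the same split. Of 30 cell cycle genes 29 lay above 0 with a median of 0.63, and 0 were called by edgeR. Mki67, a nuclear protein of dividing cells, was at 1410, 1640 and 1050 CPM in the rich libraries and at 697, 643, 362, 809 and 767 CPM in the poor ones (log2 difference 0.98, SE 0.25, adjusted p = 0.0722). Top2a, the topoisomerase of dividing cells, was at 427, 560 and 375 CPM and at 218, 248, 109, 207 and 256 CPM (1.04, SE 0.25, adjusted p = 0.0596). Neither gene overlapped between the sets, and SS replicate 2 was the lowest library for both.

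Interferon response genes were near 0 as a group, with a median of 0.08 and 1 of 26 called. That gene was Rsad2, at 263, 260 and 371 CPM in rich and 47.5, 28.5, 62.5, 187 and 34.1 CPM in poor libraries (log2 difference 2.45, SE 0.48, adjusted p = 0.0318). Oas2, which senses double-stranded RNA, was at 27, 80.7 and 23.9 CPM in rich and at 0.535 to 6.96 CPM in poor libraries (3.32, SE 0.79, adjusted p = 0.0596). Immediate early and heat shock genes had a median of 0.26 with 0 of 25 called. Hspa1b, an inducible heat shock protein, reached 59 CPM in SS replicate 1 and lay between 1.63 and 12.7 CPM in every other library. Schwann cell genes had a median of 1.53 with 0 of 9 called, and the sign of that median changed between alternatives. The 10 mitochondrially encoded genes tested all lay below 0 (median -0.56, 0 called), with mt-Cytb, cytochrome b, at 2410, 2380 and 2270 CPM against 3310 to 4550 CPM.

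Under stromal scaling 4 genes beside Spp1 and Bmp3 were called lower in rich libraries, named here after their values were seen: Fgf11 (-2.03), Fam78b (-1.28), Adh1 (-2.74) and Gper1 (-3.14).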
